A study of Mus musculus with 2 samples.

Results

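The Ms4a genes encode small proteins that cross the membrane repeatedly, and they lie side by side on mouse chromosome 19. Ms4a4a, Ms4a4c, Ms4a6b, Ms4a6c, Ms4a6d, Ms4a7 and Ms4a14 were chosen by name as the members known from macrophages and monocytes. The choice was made with earlier results of these data known. All 7 were found among the 27998 genes counted in both libraries. Their levels were compared between wild-type and Ccr2-/- macrophages of the mouse small intestine, between the lanes of the wild-type library, and between cells with and without Ccr2 or Timd4 transcripts. The wild-type library came from male C57BL/6J mice supplied by Janvier, and the knockout library from JAX strain 004999 mice bred in-house, for which the labels give no sex or age. Supplier and genotype therefore followed the same split and cannot be told apart. The labels state that intestines of 3 to 4 animals were pooled per genotype, that epithelium was stripped, and that live CD45+ CD11b+ MHCII+ CD64+ cells without T cell, B cell, SiglecF, Ly6G or Ly6C staining were sorted. The exclusion of Ly6C removed cells that still carried this monocyte protein. There was 1 library per genotype, so no value has a biological replicate, no test between genotypes was possible, and the intervals below (95%) cover counting error only.

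Intestinal macrophages are for a large part renewed from blood monocytes, which leave the bone marrow through the chemokine receptor Ccr2, while longer-lived resident macrophages are marked by Timd4, a receptor for phosphatidylserine on dying cells. Within the Ms4a family the best known proteins are Ms4a1, the B cell antigen CD20, and Ms4a2, the beta chain of the high-affinity IgE receptor. Ms4a7 is widely used to tell macrophages at the borders of the brain from microglia, Ms4a4c is known as a transcript of monocytes that interferons induce, and for most other members the biochemical role is not settled.

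After removal of cells with fewer than 200 genes or more than 10% mitochondrial counts, 3016 wild-type and 2612 knockout cells were analysed. Each count is a unique molecular identifier (UMI), which stands for 1 captured transcript end, and the medians were 6129 UMIs per wild-type and 2439 per knockout cell. Levels are given as counts per 1000000 UMIs (CPM) of the cells summed. The values are not divided by transcript length, because this chemistry reads transcript ends. Ccr2 itself was at 331 CPM in wild type and at 6.88 CPM in the knockout, where 50 UMIs came from 30 cells. All 10 genes of a macrophage list were found in each library, with a summed level of 16963 CPM in wild type and 13625 CPM in the knockout. The libraries also differed outside the family. A list of immediate-early genes, which respond within minutes to cell handling among other stimuli, stood at 5291 CPM in wild type and 20436 CPM in the knockout. Haemoglobin transcripts stood at 761 and 7429 CPM, monocyte markers at 762 and 259 CPM, and resident macrophage markers at 603 and 1508 CPM. The wild-type lanes shared 5 barcodes, lane 1 and the knockout shared 6, and lane 2 and the knockout shared 0.

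All members map to a stretch of chromosome 19 (GRCm38, GENCODE M21) that runs from the start of Ms4a14 at 11301249 to the end of Ms4a6d at 11604849. Ms4a14 (ENSMUSG00000099398, 11301249 to 11314454), Ms4a7 (ENSMUSG00000024672, 11321039 to 11336146) and Ms4a6d (ENSMUSG00000024679, 11586604 to 11604849) are on the minus strand. Ms4a4a (ENSMUSG00000101389, 11375523 to 11392790), Ms4a4c (ENSMUSG00000024675, 11404770 to 11427246), Ms4a6c (ENSMUSG00000079419, 11469366 to 11482192) and Ms4a6b (ENSMUSG00000024677, 11516512 to 11531256) are on the plus strand. Near-identical copies matter for counting by transcript ends. In the last 500 bases of its transcript, Ms4a6c shares a run of 96 bases with some part of the Ms4a6b transcript. The end of Ms4a4c likewise shares a run of 86 bases with some part of the Ms4a4b transcript. Both runs are shorter than 98 bases, the read length compared. The last 500 bases of Ms4a6b share at most 15 bases in a row with any other Ms4a transcript, so the longer run is not held in that end. How the counting divided reads from these stretches is not given in the sources used here, so the levels of both pairs carry that uncertainty. The other members share runs of 13 to 16 bases at most.

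Promoters are shown for Ms4a6b and Ms4a6c, the members with the longest shared stretches, and for the member with the highest level in wild type. RefSeq (GRCm38.p6) lists a start site for 6 of the 7 members. The 250 bases upstream of Ms4a6b (chr19:11518309-11518558, plus strand) and of Ms4a6c (chr19:11469118-11469367, plus strand) share runs of 24 and 48 bases, given in capitals, while every other pair of members shares at most 9 bases in a row. The window of Ms4a7 (chr19:11334696-11334945, minus strand) holds TGATTCA, given in capitals. It matches TGANTCA, the loose pattern used here for AP-1, in which the middle base may be any. The windows of Ms4a6b and Ms4a7 lie inside the longer GENCODE gene bodies.
Ms4a6b: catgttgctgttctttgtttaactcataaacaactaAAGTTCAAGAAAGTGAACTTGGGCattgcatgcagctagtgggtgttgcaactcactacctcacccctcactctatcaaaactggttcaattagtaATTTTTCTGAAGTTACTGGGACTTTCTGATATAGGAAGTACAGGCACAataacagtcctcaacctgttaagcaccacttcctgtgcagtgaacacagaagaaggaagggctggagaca
Ms4a6c: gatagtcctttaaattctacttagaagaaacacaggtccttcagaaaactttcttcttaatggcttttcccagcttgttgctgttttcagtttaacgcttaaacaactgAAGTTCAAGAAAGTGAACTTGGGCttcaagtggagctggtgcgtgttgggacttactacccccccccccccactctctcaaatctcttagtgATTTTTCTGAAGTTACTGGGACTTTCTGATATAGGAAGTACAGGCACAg
Ms4a7: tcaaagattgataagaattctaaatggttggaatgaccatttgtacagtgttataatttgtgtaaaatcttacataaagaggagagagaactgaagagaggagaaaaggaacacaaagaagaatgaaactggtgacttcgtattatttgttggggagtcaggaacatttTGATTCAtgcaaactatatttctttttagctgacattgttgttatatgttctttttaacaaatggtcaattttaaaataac
Both strands were searched for motifs, and this loose AP-1 pattern was found for Ms4a7 and Ms4a14, beside 6.75% of 32851 promoters of the same length. GAGGAAGT, a PU.1 motif (2.44% of promoters), the interferon-stimulated response element (2.98%), and TTGCGCAA, a C/EBP motif (0.164%), had no match in the 6 members' windows. A match describes letters only and is not evidence of binding.

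In wild-type macrophages the family was dominated by a few members. Ms4a7 made up 40.1% and Ms4a6c 32.1% of the 2762 CPM that the 7 members had together, and Ms4a6b and Ms4a6d followed with 14.6% and 9.19%. In the knockout the sum was 1812 CPM, and the order of the leading members was kept, with 37.3% from Ms4a7 and 35.3% from Ms4a6c. The counting intervals of neighbouring members were apart in both libraries except between Ms4a4a and Ms4a14 in wild type and between Ms4a7 and Ms4a6c in the knockout.

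Ms4a7 had 1106 CPM in wild-type lane 1 (1089 to 1123 CPM), 1114 CPM in lane 2 (1088 to 1141 CPM), while the knockout stood at 676 CPM (658 to 696 CPM). The lanes overlapped and the knockout lay below both. Ms4a6c had 877 CPM in lane 1 (862 to 893 CPM), 910.4 CPM in lane 2 (887 to 935 CPM), while the knockout stood at 640.4 CPM (622 to 659 CPM). Ms4a6b had 401 CPM in lane 1 (391 to 412 CPM), 409 CPM in lane 2 (394 to 426 CPM), while the knockout stood at 297 CPM (285 to 310.1 CPM). For both Ms4a6 genes the lanes overlapped and the knockout was lowest.

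Ms4a6d had 231 CPM in lane 1 (224 to 239 CPM), 307 CPM in lane 2 (293 to 321 CPM), while the knockout stood at 145 CPM (137 to 154 CPM). Here the lanes themselves were apart, by a log2 ratio of 0.41, and the knockout lay below the lower lane by more than the lanes differed. Ms4a4c, the monocyte transcript, had 76.0 CPM in lane 1 (71.6 to 80.7 CPM), 86.3 CPM in lane 2 (79.1 to 94.0 CPM), while the knockout stood at 27.7 CPM (24.0 to 31.8 CPM). Again the knockout was well below both lanes, whose intervals overlapped.

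The rarest members gave no such order. Ms4a4a had 19.4 CPM in lane 1 (17.2 to 21.7 CPM), 7.04 CPM in lane 2 (5.10 to 9.48 CPM), while the knockout stood at 9.63 CPM (7.51 to 12.2 CPM). Ms4a14 had 16.5 CPM in lane 1 (14.5 to 18.8 CPM), 10.6 CPM in lane 2 (8.21 to 13.6 CPM), while the knockout stood at 15.1 CPM (12.4 to 18.3 CPM). For each of these genes the lanes were apart, and the knockout overlapped at least 1 of them. The log2 ratio of lane 2 to lane 1 was -1.34 for Ms4a4a, which made 1 of 7 members past 2-fold between lanes of the same sample, against 0.727% of the 7014 genes compared. The summed level of the red cell markers was 1078 CPM in lane 1 and 3.44 CPM in lane 2. The part of that difference in the lane ratios was not tested. Differences of Ms4a4a and Ms4a14 between the genotypes are therefore no larger than differences between lanes.

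**Figure D1:**
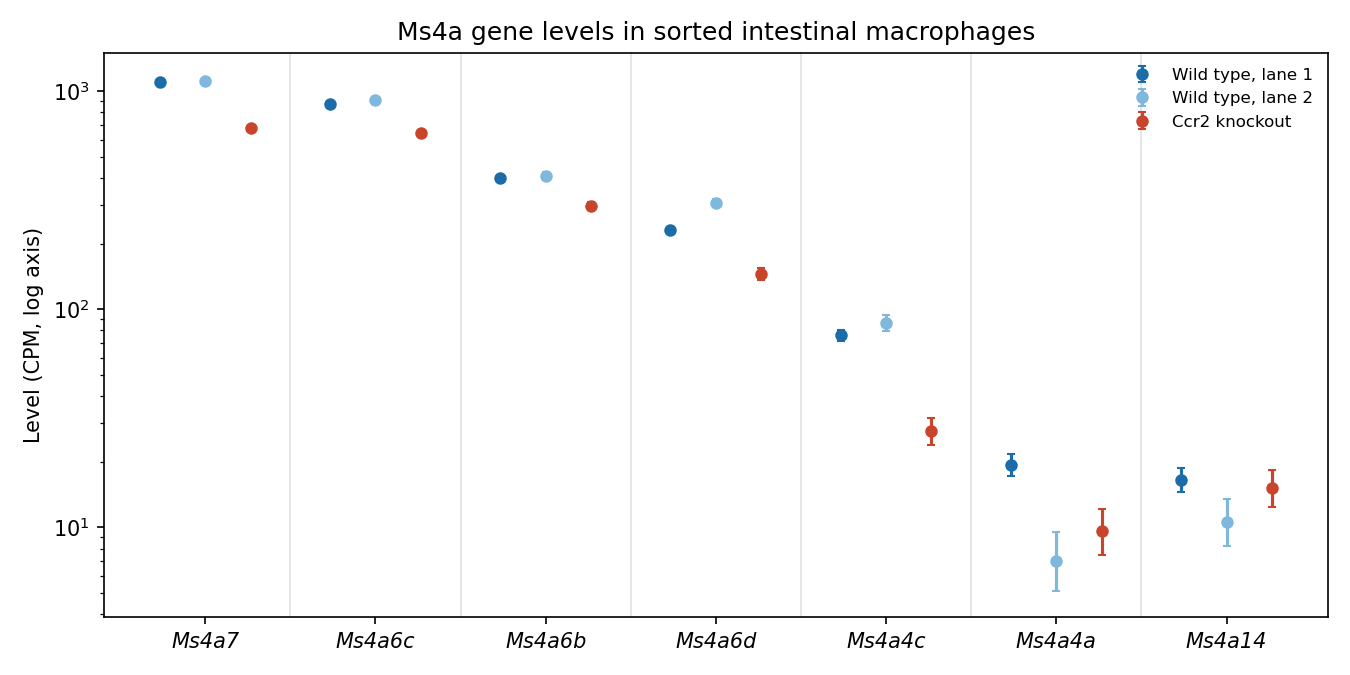
Level of each Ms4a gene in CPM on a log axis, in wild-type lane 1, wild-type lane 2 and the Ccr2 knockout, with 95% Poisson intervals that cover counting error only. For Ms4a7, Ms4a6c, Ms4a6b, Ms4a6d and Ms4a4c the knockout lies below both lanes, while for Ms4a4a and Ms4a14 it lies near or between them.

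Between the whole libraries, 6 of 7 members were lower in the knockout, with log2 ratios below 0 and a median over the 7 of -0.65 (on the scale of CPM plus a pseudocount of 1). The median over all 7401 genes with a mean level of at least 10 CPM was 0.18, so the members lay further from the typical gene than from 0. The intervals of ratios come from the counts without the pseudocount, so they are not centred on the ratios printed. Ms4a4c, at -1.48 (-1.73 to -1.30), was the 1 member lower by 2-fold or more. Its ratio was -0.84, short of 2-fold, in cells of low immediate-early share, where Ms4a6d (-1.02) was the member past the limit. Of all genes 3.12% were lower by that much and 12.2% differed by that much in either direction. Ms4a6d was at -0.80, Ms4a7 at -0.71, Ms4a4a at -0.65, Ms4a6c at -0.47 and Ms4a6b at -0.44, and Ms4a14 was at 0.03 (-0.29 to 0.35).

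Because the libraries differ in depth, the share of cells with a UMI was also taken after each cell had been thinned at random to 1000 UMIs, which left out 1 wild-type and 196 knockout cells. Ms4a7 was then seen in 60.1% (58.4% to 61.9%) of cells from the wild type and in 45.1% (43.1% to 47.1%) of those from the knockout, against 91.4% and 69.0% before thinning. Ms4a6c was found in 56.6% and 45.5% of thinned cells, Ms4a6b in 33.9% and 26.1%, and Ms4a6d in 21.0% and 12.8%. The intervals of the libraries were apart for all these genes and for Ms4a4c, with 5.37% (4.595% to 6.24%) and 2.52% (1.94% to 3.23%). Ms4a4a, at 1.23% and 0.993%, and Ms4a14, at 1.36% and 1.74%, overlapped. Before thinning the shares in wild type and knockout were 94.96% and 70.1% for Ms4a6c, 81.9% and 48.6% for Ms4a6b, 65.9% and 29.4% for Ms4a6d, and 28.5% and 6.20% for Ms4a4c. They were 9.62% and 2.49% for Ms4a4a and 8.75% and 4.02% for Ms4a14.

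The level that free transcripts can give was read from cells that should lack these genes, namely 12 wild-type and 29 knockout cells chosen by at least 3 UMIs of T cell, innate lymphoid, B cell, fibroblast or endothelial markers and by no UMI of defining macrophage genes such as Csf1r, Adgre1 and Fcgr1 (medians of 3436.5 and 2321 UMIs). Plasma cell markers, which the choice did not use, summed to 82163 CPM in these wild-type cells and 14566 CPM in these knockout cells. Ms4a7 had 72.1 CPM in those of wild type (19.7 to 185 CPM) and no UMI in those of the knockout, where a count of 0 has an upper bound of 50.9 CPM. Ms4a6c had 18.0 and 41.4 CPM, and Ms4a6b 72.1 and 41.4 CPM. These values lie far below the macrophage levels of the same genes. After thinning, Ms4a7 was found in 16.7% of these wild-type cells (2.09% to 48.4%) and 0% of these knockout cells (up to 12.3%), Ms4a6c in 0% (up to 26.5%) and 3.57%, and Ms4a6b in 8.33% and 7.14%. Ms4a4c had 3 UMIs in the wild-type cells, or 54.1 CPM (11.2 to 158 CPM), an interval that includes its level over the library, so its low background is not resolved at this depth. The same limit holds for Ms4a4a and Ms4a14, which had no UMI in these wild-type cells (up to 66.5 CPM), and Ms4a14 had 13.8 CPM from 1 UMI in these knockout cells.

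To ask which members go with recently recruited and with resident cells, wild-type cells were divided by their transcripts into 1233 with Ccr2 and no Timd4 (Ccr2-positive, median of 7713 UMIs), 354 with Timd4 and no Ccr2 (Timd4-positive, 5919 UMIs) and 1338 with neither (negative for both, 4989.5 UMIs). A further 91 cells had both. In the knockout 812 cells were Timd4-positive (3015 UMIs) and 1770 were negative for both (2176 UMIs), and 27 were Ccr2-positive. A cell without a UMI of a marker may still express it, so the negative class may hold cells of the other classes too. Several lists of markers of other cell types were higher there than in the other classes, although the monocyte list was highest in Ccr2-positive and the endothelial list in Timd4-positive wild-type cells. In wild type the plasma cell list summed to 3342 CPM in cells negative for both, 849 CPM in Ccr2-positive and 271 CPM in Timd4-positive cells, the red cell list to 2056, 13.1 and 15.2 CPM, and the epithelial list to 317, 103 and 74.5 CPM. In knockout cells negative for both and Timd4-positive cells, the plasma cell list summed to 2709 and 312 CPM the fibroblast list to 353 and 30.6 CPM and the red cell list to 9973 and 3323 CPM. Ratios to this class were therefore also taken in the 2986 wild-type and 2580 knockout cells with under 1% of UMIs from plasma cell, red cell, epithelial and fibroblast markers, an alternative added after the data had been seen.

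Ms4a7 was lowest in Ccr2-positive and highest in Timd4-positive cells. It had 759 CPM in wild-type Ccr2-positive cells (742 to 777 CPM), 1391 CPM in cells negative for both (1364 to 1418 CPM) and 1709.95 CPM in Timd4-positive cells (1658 to 1764 CPM). The 3 classes were apart, and the lanes repeated them, with 766 and 744 CPM in Ccr2-positive cells and 1700 and 1733 CPM in Timd4-positive cells. After thinning, Ms4a7 was found in 49.0%, 66.2% and 75.4% of these classes, without overlap. The log2 ratio of Ccr2-positive cells to cells negative for both was -0.87 (-0.92 to -0.83), and that of Timd4-positive to Ccr2-positive cells was 1.17 (1.12 to 1.23).

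Ms4a4c was instead highest in Ccr2-positive cells. It had 111 CPM in wild-type Ccr2-positive cells (104 to 117 CPM), 47.6 CPM in cells negative for both (42.8 to 52.8 CPM) and 49.1 CPM in Timd4-positive cells (40.6 to 58.9 CPM). The Ccr2-positive class stood alone, and the other classes overlapped. Lane 1 had 106 CPM and lane 2 had 123 CPM in Ccr2-positive cells. Ms4a4c was the 1 of 7 members higher by 2-fold or more in Ccr2-positive cells than in cells negative for both, with a log2 ratio of 1.20 (1.04 to 1.39). Of 7065 genes, 0.665% were higher by that much and 2.28% differed by that much either way. The thinned shares were 8.44% (6.95% to 10.1%), 3.36% and 2.26% in the same order of classes. When cells were classed after thinning, so that deep cells were no more likely to show a Ccr2 UMI, the log2 ratio was 0.70. This is short of 2-fold and in the same direction. Thinning left a Ccr2 UMI in 47.7% of Ccr2-positive cells, so this rule also moves many of them to the class negative for both. In cells of 2000 to 4000 UMIs, classed without thinning, the ratio was 1.35.

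Ms4a6c, Ms4a6b and Ms4a6d differed less between the classes. Ms4a6c had 909 CPM in Ccr2-positive cells (891 to 928 CPM), 842 CPM in cells negative for both (822 to 863 CPM) and 929 CPM in Timd4-positive cells (891 to 969 CPM). It was thus the leading member in Ccr2-positive cells, where it made up 37.8% of the family and Ms4a7 31.6%, while Ms4a7 led in Timd4-positive cells and in cells negative for both. Ms4a6b had 384, 410.1 and 473 CPM in these classes, and Ms4a6d had 219, 275 and 356 CPM. Both were highest in Timd4-positive cells, and for Ms4a6d all 3 intervals were apart. In log2 ratios to cells negative for both, Ccr2-positive cells stood at 0.11 for Ms4a6c, -0.09 for Ms4a6b and -0.33 for Ms4a6d, and at 0.079, -0.13 and -0.36 in cells with under 1% of UMIs from other lineages. The thinned shares of Ms4a6d were 17.2%, 23.6% and 26.0%, of which the last 2 overlapped.

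Ms4a4a had 12.5 CPM in Ccr2-positive cells, 19.6 CPM in cells negative for both and 17.3 CPM in Timd4-positive cells, and Ms4a14 had 9.43, 19.8 and 20.3 CPM. Ms4a14 was lower in Ccr2-positive cells than in cells negative for both with a log2 ratio of -0.998 (-1.46 to -0.69). With the pseudocount of 1 CPM this is just under the 2-fold limit. With a pseudocount of 0.1 CPM the ratio was -1.06, past the limit. In lane 1 this ratio was -1.19 (-1.72 to -0.83), and in lane 2 it was -0.40 with an interval (-1.28 to 0.39) that includes 0. Few UMIs stand behind these values, 94 and 48 for Ms4a14 in the Ccr2-positive and Timd4-positive classes.

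Against cells negative for both, Timd4-positive wild-type cells had 0 of 7 members past 2-fold, beside 0.817% of 7102 genes. The log2 ratios were 0.37 for Ms4a6d (0.26 to 0.49), 0.30 for Ms4a7 (0.25 to 0.35), 0.20 for Ms4a6b and 0.14 for Ms4a6c. In the knockout the same comparison gave 0.35 for Ms4a6d (0.17 to 0.53), 0.27 for Ms4a7 (0.18 to 0.35), 0.13 for Ms4a6b and 0.22 for Ms4a6c, and 0 of the 6 members above the minimum level passed 2-fold, beside 1.51% of 7542 genes. Both libraries thus gave small positive ratios for these 4 genes. In cells with under 1% of UMIs from other lineages they were 0.34, 0.26, 0.17 and 0.10 in wild type and 0.30, 0.22, 0.087 and 0.17 in the knockout, in the same order. In knockout cells of 2000 to 4000 UMIs the ratio was 0.060 for Ms4a6d, 0.067 for Ms4a6c and 0.18 for Ms4a7. The lowest alternative value of Ms4a6b in the knockout, 0.053, came when cells were classed after thinning. The difference between the libraries in the ratios of the 4 genes was not tested.

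**Figure D2:**
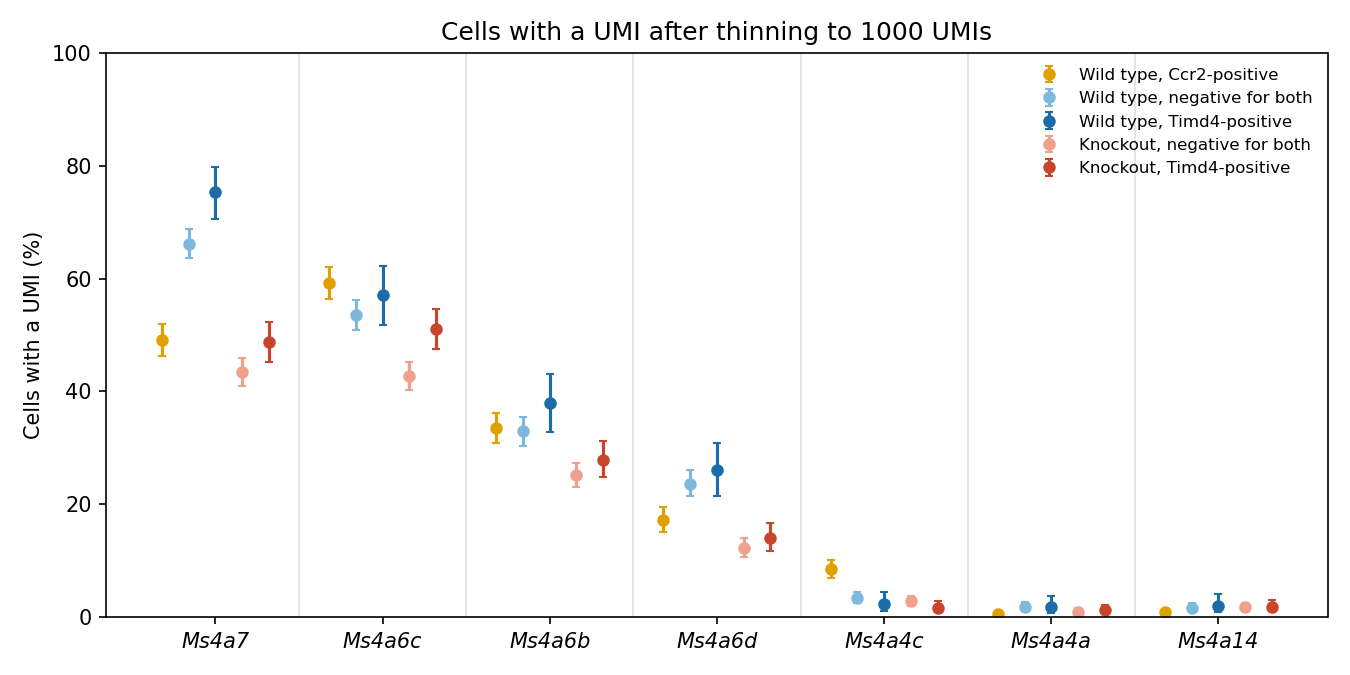
Percent of cells with at least 1 UMI of each Ms4a gene after thinning every cell to 1000 UMIs, in 3 classes of wild-type and 2 classes of knockout cells, with 95% Clopper-Pearson intervals. Ms4a7 runs from 49.0% in wild-type Ccr2-positive to 75.4% in wild-type Timd4-positive cells, while Ms4a4c is highest, at 8.44%, in Ccr2-positive cells.

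The lower level of the family in the knockout was also seen within the classes, where the macrophage list was lower too. In Timd4-positive cells that list summed to 20820 CPM in wild type and 14932 CPM in the knockout. In cells negative for both it summed to 18852 and 12962 CPM. Its part in the ratios of the members was not tested. In Timd4-positive cells, Ms4a7 had 1709.95 CPM in wild type, against 762 CPM (729 to 796 CPM) in knockout cells, which gives a log2 ratio of -1.17 (-1.24 to -1.09). In this level the knockout Timd4-positive cells overlapped the wild-type Ccr2-positive cells (759 CPM) and not the wild-type Timd4-positive cells. The Timd4-positive classes are not matched between the libraries. Timd4 itself was at 241 CPM in those of wild type and 450 CPM in those of the knockout, and after thinning in 20.9% and 43.2% of them. Ms4a6d had 356 and 169 CPM, a ratio of -1.07 (-1.24 to -0.91), and Ms4a4c had 49.1 and 23.4 CPM, a ratio of -1.04 (-1.54 to -0.61). These were the 3 of 7 members lower by 2-fold or more in Timd4-positive cells, where 3.91% of 7297 genes were lower by that much and 11.5% differed by that much either way. Against wild-type lane 1 alone, Ms4a6d (-0.97) was short of 2-fold and Ms4a4a (-1.10) was past it. In cells of 2000 to 4000 UMIs Ms4a6d (-0.92) and Ms4a4c (0.10) were short of it, and with a low immediate-early share so were Ms4a7 (-0.84), Ms4a6d (-0.68) and Ms4a4c (0.18). Ms4a6b, at -0.59, and Ms4a6c, at -0.41, were nearer to the median of all genes, which was 0.14.

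In cells negative for both markers, Ms4a7 had 1391 CPM in wild type, against 634 CPM (611 to 657 CPM) in knockout cells, which gives a log2 ratio of -1.13 (-1.19 to -1.07). Ms4a6d had 275 and 133 CPM, a ratio of -1.05 (-1.18 to -0.92). These were the 2 of 7 members lower by 2-fold or more, beside 2.72% of 7469 genes lower and 10.9% past 2-fold either way. Against wild-type lane 1 alone, Ms4a6d (-0.91) was short of 2-fold and Ms4a4a (-1.20) was past it. Both Ms4a7 (-0.97) and Ms4a6d (-0.58) were short of 2-fold in cells of 2000 to 4000 UMIs, where Ms4a4a (-1.20) was past it, and likewise when cells were classed after thinning (-0.87 and -0.90), where Ms4a4c (-1.32) was past it. Ms4a4a was at -0.91, Ms4a4c at -0.84, Ms4a6b at -0.51, Ms4a6c at -0.48 and Ms4a14 at -0.42. The comparisons of Timd4-positive cells and of cells negative for both use separate cells of the same libraries, so whatever differs between the libraries as a whole enters each.

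Thinned shares were apart for some of these members and overlapped for others. Ms4a7 was found in 75.4% of wild-type (70.6% to 79.8%) and 48.7% of knockout Timd4-positive cells (45.1% to 52.2%), and in 66.2% and 43.4% of cells negative for both. Ms4a6d was found in 26.0% (21.5% to 30.9%) and 14.1% (11.7% to 16.7%) of Timd4-positive cells. Ms4a6c, at 57.1% (51.7% to 62.3%) and 51.1% (47.5% to 54.6%) of Timd4-positive cells, overlapped although its levels were apart. Ms4a4c was found in 3.36% (2.46% to 4.47%) and 2.76% (2.01% to 3.68%) of cells negative for both, which overlapped, and so did Ms4a14, with 1.64% and 1.75%.

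**Figure D3:**
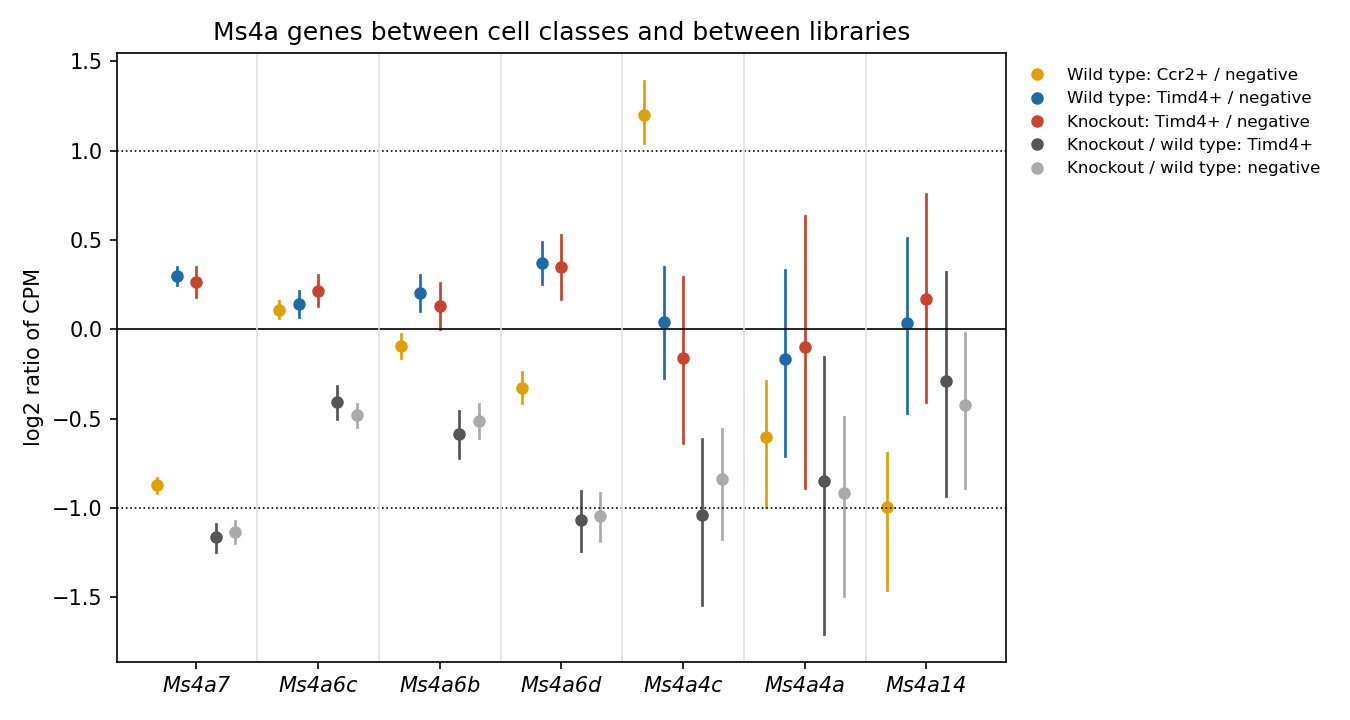
Log2 ratio of CPM for each Ms4a gene in 5 comparisons, with 95% counting intervals and dotted lines at 2-fold. Ms4a4c alone lies above the upper line, for wild-type Ccr2-positive cells against cells negative for both (1.20), and Ms4a7 and Ms4a6d lie below the lower line for knockout against wild type in both classes.

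The relation of the members to immediate-early transcripts differed between genes and between libraries. Cells were split at the median immediate-early share over both libraries, which put 90.2% of knockout and 15.2% of wild-type cells in the upper part. Within wild type, cells of the upper part had a Ms4a7 log2 ratio of -0.57 (-0.64 to -0.50) to the lower part, against 0.03 (-0.04 to 0.09) for Ms4a6c and -0.24 for Ms4a6d. Within the knockout the ratio for Ms4a7 was 0.04 (-0.09 to 0.17). These ratios within a library were taken over all classes together. The classes differ in this list, which stood at 5660 CPM in wild-type Ccr2-positive and 4405 CPM in wild-type Timd4-positive cells. In cells of the lower part alone, 257 knockout and 2557 wild-type cells, the knockout lay below wild type in Ms4a7, with a log2 ratio of -0.80 over all classes, -0.84 in Timd4-positive cells and -1.40 in cells negative for both. This split was added after the data had been seen. It left 64 knockout Timd4-positive cells, in which the ratio of Ms4a4c turned to 0.18.

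The spread between cells was described for cells of at least 3000 UMIs, with each cell scaled to 10000 UMIs. Ms4a7 had a median of 6.24 in 1071 wild-type Ccr2-positive cells, with a range from the first to the third quartile of 2.55 to 10.8. In 313 Timd4-positive cells the median was 15.3 (10.6 to 21.4), so the middle ranges of the classes met only at their edges. In 410 knockout Timd4-positive cells it was 6.63 (3.35 to 10.2). Ms4a6c had medians of 8.72 in the Ccr2-positive, 7.97 in the negative and 8.84 in the Timd4-positive cells of wild type, and 6.20 in the Timd4-positive cells of the knockout. The ranges between quartiles largely overlapped in wild type.

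**Figure D4:**
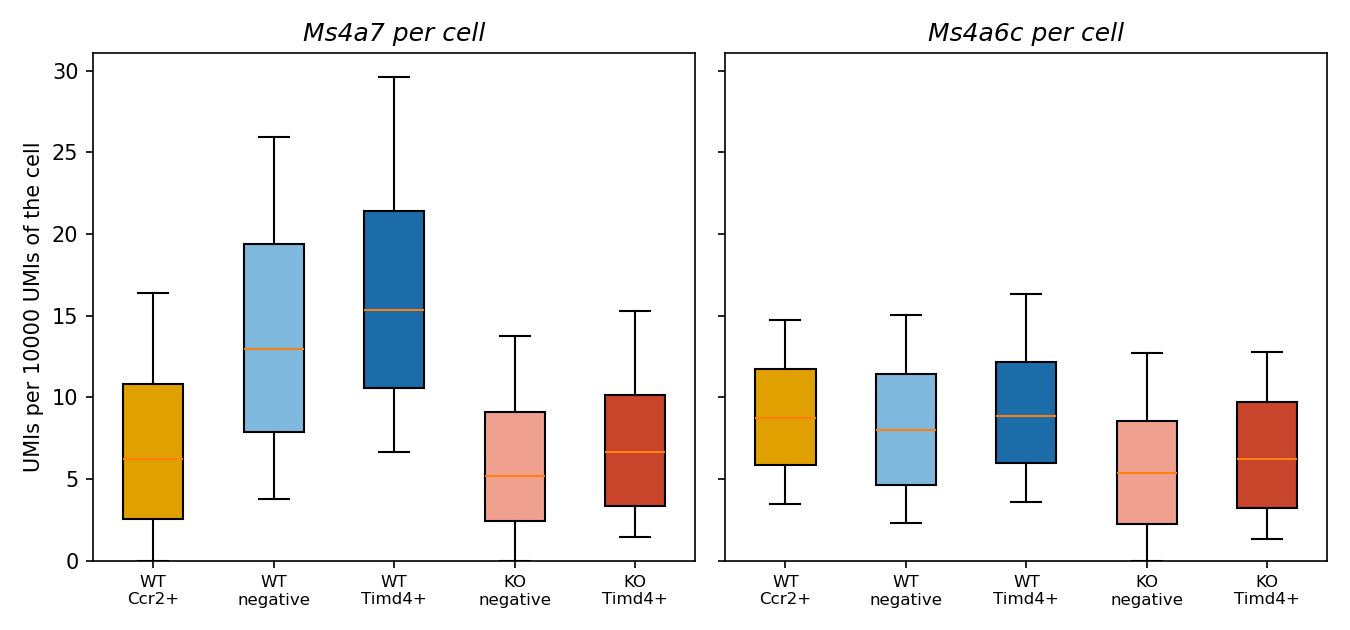
UMIs of Ms4a7 (left) and Ms4a6c (right) per 10000 UMIs of the cell, in cells of at least 3000 UMIs of 5 classes, where lines are medians, boxes run between the quartiles and whiskers leave out the outer 10% of cells at either end. The Ms4a7 median is 6.24 in wild-type Ccr2-positive and 15.3 in wild-type Timd4-positive cells, while Ms4a6c stays between 7.97 and 8.84 in the wild-type classes.

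Within the Ccr2-positive class, cells with a UMI of Plac8, a gene of monocytes, were set against cells without. Ms4a4c had 144 CPM in the 516 cells with Plac8 (134 to 156 CPM) and 79.8 CPM in the 717 cells without (72.3 to 87.9 CPM), a log2 ratio of 0.85 (0.68 to 1.03). Ms4a7 had 607 CPM (585 to 629 CPM) and 898 CPM (873 to 925 CPM), a ratio of -0.57 (-0.63 to -0.50). Ms4a4c and Ms4a7 thus went in opposite directions inside the class, each without overlap, while Ms4a6b (-0.04), Ms4a6c (0.07) and Ms4a6d (0.06) stayed close to 0. Of the 6 members above the minimum level 0 passed 2-fold, beside 0.649% of 6936 genes. The cells with Plac8 were deeper, with medians of 8822.5 and 6766 UMIs.

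Ms4a4c was also higher in cells with an interferon response. Cells with at least 3 of 8 interferon-response genes after thinning numbered 79 in wild type and 73 in the knockout. Ms4a4c had 318 CPM (271 to 371 CPM) in those of wild type, against 73.1 CPM in all other wild-type cells, a log2 ratio of 2.11 (1.88 to 2.36). In the knockout it had 125 CPM (83.8 to 179.8 CPM) and 23.6 CPM, a ratio of 2.36 (1.78 to 2.98). Neither pair overlapped. The monocyte list moved with this gate, with 1367 CPM in interferon-responding cells against 762 CPM over all wild-type cells, and 483 against 259 CPM in the knockout, and its part in the difference was not tested. Ms4a4c was the 1 of 7 members past 2-fold in each library. Of all genes 6.95% in wild type and 14.00% in the knockout differed by that much either way, and 3.84% and 5.48% were higher by that much. In the knockout 1 of 7 is thus near the share of all genes, and the Ms4a4c level rested on 29 UMIs in 14 cells. Ms4a6c, at 0.63 and 0.57, and Ms4a6b, at 0.68 and 0.50, were higher in these cells too, and Ms4a7 was not apart (-0.08 and 0.12, both with intervals that include 0).

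The genes whose levels ran most nearly alongside each member were sought over 2492 wild-type cells of at least 3000 UMIs, among 5990 genes found in at least 10% of them. All cells share a library and differ in depth and class, so the correlations are descriptions. Ms4a7 ran with Apoe, the lipid carrier (Pearson's r of 0.60), the lysosomal proteases Ctsb (0.56) and Lgmn (0.52), the complement gene C1qa (0.52) and Itm2b (0.51). In 977 knockout cells the values were 0.42, 0.33, 0.24, 0.39 and 0.095. Its lowest values were with Tmsb10 (-0.50) and Ccr2 (-0.47). For Ms4a4c the highest values were with Irf7 (0.29), Ifitm3 (0.28), Plac8 (0.28), Ly6a (0.27) and Ccr2 (0.27), the first pair being interferon-response genes. Values under 0.3 in counts this sparse are not read as a finding. Among the 21 pairs of members the highest values were 0.27 for Ms4a6b with Ms4a6c, which may share reads, and 0.26 for Ms4a6d with Ms4a7.

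The remaining Ms4a genes were nearly silent in these cells. Of 12 others in the files, Ms4a2, Ms4a3, Ms4a5, Ms4a13 and Ms4a15 had no UMI in either library, which allows up to 0.178 CPM in wild type and 0.508 CPM in the knockout. Ms4a4b, a gene of T cells whose transcript shares a run of 86 bases with the end of Ms4a4c, had 8.66 and 6.74 CPM. Ms4a8a had 7.16 and 3.99 CPM, and Ms4a1, Ms4a4d, Ms4a10, Ms4a12 and Ms4a18 had between 0 and 4.54 CPM. Tmem176a and Tmem176b, relatives of the family on chromosome 6 that encode ion channels of endosomal membranes, were abundant, at 692 and 1133 CPM in wild type and 367 and 590 CPM in the knockout. Their log2 ratios of -0.91 and -0.94 were lower than that of Ms4a7 over all cells. Between the classes they took another order, with -0.33 and -0.20 in Timd4-positive against Ccr2-positive wild-type cells, where Ms4a7 stood at 1.17.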

How the data were processed

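The deposited values are raw UMI counts of each gene in each cell, which the authors made with Cell Ranger 3.0.1 on mm10, per the submitters' processing notes. The libraries follow the 10x Genomics single-cell 3′ v2 protocol, and 2 barcode suffixes tell the lanes of the wild-type sample apart, per the labels. How cells were called, and on which annotation reads were counted, is not given in the sources used here. The filtered cells held 20678108 UMIs in wild type (14571081 in lane 1, 6107027 in lane 2) and 7265386 in the knockout. Counts were summed per class and scaled to CPM with exact Poisson intervals (scipy 1.17.1). Ratios carry exact conditional binomial intervals, which were taken from the counts without the pseudocount. Shares carry Clopper-Pearson intervals. A pseudocount of 1 CPM, a minimum mean of 10 CPM and a limit of 2-fold were used, and genes past that limit are counted without a test. Doublets were kept, and an alternative removed the top Scrublet scores (scanpy 1.11.5). The statistics were tested on simulated data. Members, classes, motifs and lists were chosen with earlier results of these data known. The genes described are the members, their relatives and, per member, the 5 most correlated genes, of which those of Ms4a7 and Ms4a4c are printed. Among the markers and motifs used, 1 of each is not reported here. The alternatives were other pseudocounts, scaling, filters, depth windows, lanes, class rules and thinning.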

Additional observations from a re-analysis of the deposited data

Results flagged for a closer look

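Cells that enter none of the comparisons of classes held signal of their own. In the 27 knockout cells with a Ccr2 UMI and no Timd4 UMI, Ms4a4c was at 194 CPM (120.0 to 296 CPM), from 21 UMIs in 8 cells, above the 27.7 CPM of the whole knockout library. Of these UMIs 14 came from 2 cells that also had Plac8, and the 18 cells without Plac8 were at 104 CPM (42.0 to 215 CPM). In the 91 wild-type cells with UMIs of both Ccr2 and Timd4, Ms4a4c was at 72.4 CPM (54.9 to 93.9 CPM), between the Timd4-positive and the Ccr2-positive class. Among the 38 wild-type cells that the cell filter removed, Ms4a6b was at 565 CPM (419 to 745 CPM), from 50 UMIs in 24 cells, above the 404 CPM of the cells kept. In the 162 removed knockout cells it was at 236 CPM, below the 297 CPM of the cells kept, and in removed wild-type cells Ms4a7 (757 CPM) and Ms4a6d (79.1 CPM) were below their levels in the cells kept. The differences were not tested.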

How the results depend on the processing

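Of 584 member ratios recomputed under alternatives, 26 changed sign, and 2 of these had been past 2-fold. Both were Ms4a4c in Timd4-positive cells, where the knockout-to-wild-type log2 ratio became 0.10 in cells of 2000 to 4000 UMIs and 0.18 in cells with a low immediate-early share, a setting chosen after seeing the data. Members past 2-fold in Ccr2-positive cells against cells negative for both numbered 2 with a pseudocount of 0.1 CPM, in gated macrophages, in cells of 2000 to 4000 UMIs, in lane 1 alone and in cells with under 1% of UMIs from other lineages (also chosen after seeing the data), 3 when a class needed at least 2 UMIs, and 0 when cells were classed after thinning. For knockout against wild type in cells negative for both, 1 passed with a pseudocount of 10 CPM, in cells of 2000 to 4000 UMIs, with equal weight per cell and when classed after thinning, and 4 with a low immediate-early share. In Timd4-positive cells 1 passed at 2000 to 4000 UMIs and 0 with a low immediate-early share, and over all cells 2 passed against lane 2 alone. Timd4-positive cells against cells negative for both gave 2 in wild type at 2000 to 4000 UMIs, each lower. These were Ms4a4a (-1.20, from -0.16) and Ms4a14 (-1.80, from 0.03). The same comparison gave 2 in the knockout with a low immediate-early share, each higher. Those were Ms4a4c (1.14, from -0.16) and Ms4a6d (1.27, from 0.35). Equal counts can hide an exchange of genes: over all comparisons and alternatives 18 calls of a member were lost and 22 gained. The cause of these moves was not tested. Ms4a7 ranged from -1.31 to -0.84 in Timd4-positive cells and from -1.40 to -0.87 in cells negative for both. Thinning to 500 UMIs gave shares in wild type and knockout of 40.0% and 27.5% for Ms4a7, 36.3% and 28.6% for Ms4a6c, 17.3% and 15.1% for Ms4a6b, 10.7% and 7.39% for Ms4a6d, 3.85% and 1.15% for Ms4a4c, 0.995% and 0.383% for Ms4a4a and 0.962% and 1.11% for Ms4a14. With no thinning they were 91.4% and 69.0%, 94.96% and 70.1%, 81.9% and 48.6%, 65.9% and 29.4%, 28.5% and 6.20%, 9.62% and 2.49%, and 8.75% and 4.02%, in the same order of genes. Depth limits Ms4a4a and Ms4a14 most. No paired analysis was possible because each genotype has 1 library.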

Other observations

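Cells with at least 2 of Folr2, Lyve1, Cbr2 and F13a1 after thinning, genes of macrophages beside vessels, numbered 25 in wild type and 26 in the knockout. In these cells the level of Ms4a7 was 917 CPM (771 to 1082 CPM) for the wild type, against 555 CPM (396 to 756 CPM) for the knockout, and Ms4a6c was at 753 and 402 CPM. The log2 ratios of Ms4a7 to the other cells were -0.28 and -0.29. In wild type the other cells stood at 1110 CPM (1096 to 1124 CPM), apart from the gated cells. In the knockout they stood at 679 CPM (660 to 699 CPM), which overlapped the gated cells, where Ms4a7 had 40 UMIs. With so few cells, 25.1% of genes in wild type and 30.6% in the knockout differed by 2-fold or more.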
